A study of Homo sapiens with 4 samples.

Results

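The 35 genes described here encode the 12 subunits of RNA polymerase II (Pol II), the TATA-binding protein TBP with 15 TBP-associated factors (TAFs), and 7 subunits of the general initiation factors TFIIA, TFIIB, TFIIE and TFIIF. They were taken by symbol from the 69222 gene identifiers of the count files, and each symbol matched 1 identifier. HEK293T, the source of the poly(A) RNA, is an established line of human embryonic kidney cells. It expresses the large T antigen of the virus SV40. The cells had been transduced with lentivirus carrying either a control short hairpin RNA (shCtrl, 2 libraries) or a hairpin against RPRD1B (shRPRD1B, 2 libraries), so all 4 libraries came from transduced cells. RPRD1B encodes a protein that binds the phosphorylated C-terminal domain of POLR2A, the largest subunit of Pol II. The sources used here do not give the hairpin sequences or say whether the libraries of a group came from separate cultures. The p-values therefore measure the spread between these libraries, which may be technical.

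Pol II makes the messenger RNA of nuclear genes. To start, TFIID, which is TBP with its TAFs, binds the core promoter, TFIIA steadies TBP on DNA, TFIIB bridges TBP to the polymerase, TFIIF arrives with the polymerase, and TFIIE recruits the helicase complex that opens the DNA. Most of these proteins work as parts of multi-subunit complexes, and several have a paralogue that can take their place.

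Of the 35 members, 34 had enough counts to be tested among 20319 genes, and TAF9 did not. None of the 34 was called higher or lower in shRPRD1B with edgeR's quasi-likelihood test at a Benjamini-Hochberg adjusted p under 0.05, and their adjusted p-values lay between 0.582 and 0.977. Over all tested genes the same rule called 0.0295% higher and 0.0394% lower, 0.0689% in all, so a count of 0 members is what the background gives. At an unadjusted p under 0.05, 0 members were higher and 1 was lower, where 3.55% and 3.94% of all tested genes were, 7.49% in all. DESeq2 and limma voom also called 0 members, while calling 1.18% and 0% of all tested genes. With the replicate number as a block 0 members were called, against 0.694% of all tested genes. The 95% interval of the log2 fold change lay within -1 and 1, that is within a 2-fold change either way, for 33 of the 34 members, the exception being POLR2A. The same held for 61.2% of all tested genes and for 94.9% of those with a mean of at least 10 CPM (counts scaled to a common library size).

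The targeted gene stood at 50.4 and 50.1 CPM in the shCtrl libraries and at 27.2 and 35.5 CPM in shRPRD1B 1 and 2, which is the direction of the labels, with RPRD1B not called by edgeR (adjusted p = 0.448). Library totals ran from 47732913 to 65572391 counts. Among the 8966 genes of at least 16 CPM, the SD of the log2 ratio was 0.171 within the shCtrl pair and 0.393 within the shRPRD1B pair, so the knockdown pair was the more variable. Of 7 genes listed as HEK293T markers, 5 had at least 1 CPM in every library, with sums between 225 and 283 CPM. LHX1 and PAX8 did not. NEFL and NEFM made up most of each sum, while PAX2 stood at 5.82 to 11.4 CPM and EMX2 at 5.35 to 8.29 CPM. Sums of leukocyte markers were 2.54 to 4.19 CPM and of endothelial markers 0.109 to 0.232 CPM. Fibroblast markers summed to 32.9 and 37.4 CPM in shCtrl and to 21.5 and 23.4 CPM in shRPRD1B, with COL1A2 at 0 counts in all libraries, and epithelial markers to 89.2 and 92.8 CPM in shCtrl and to 58.5 and 84.6 CPM in shRPRD1B. The part of these differences in the members' values was not tested.

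**Figure D1:**
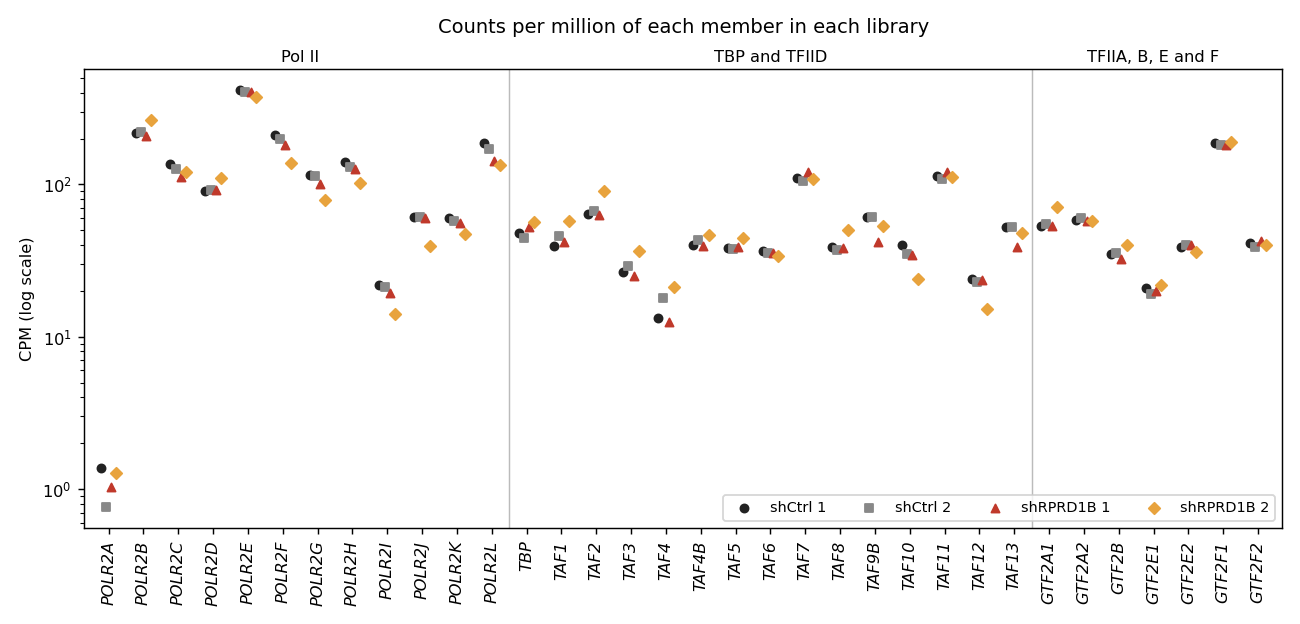
CPM on a log scale for the 34 tested members in each of the 4 libraries, grouped by complex. POLR2A lies near 1 CPM, far below the other members, and in most columns the 4 symbols lie close together.

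POLR2A, which carries the repeated C-terminal domain that RPRD1B binds, could not be measured in these files. Its counts were 65 and 37 in the controls and 68 and 70 after knockdown, that is 1.37, 0.760, 1.04 and 1.28 CPM, although every cell needs the largest subunit and its partner POLR2B stood at over 200 CPM. The control libraries alone differed for POLR2A by more than the knockdown libraries did, and the groups overlapped. Its log2 fold change was 0.11 ± 0.38 (SE), with a 95% interval from -0.83 to 1.06, and it turned to -0.25 without shCtrl 2 and to -0.03 without shRPRD1B 2. For TAF9, a histone-fold subunit of TFIID, the controls held 0 and 4 counts and the knockdown libraries 4 and 8. Those of 0 and 4 lie close to the 3 counts that a value of 0 allows, and the 8 in shRPRD1B 2 lies above it. TAF9 had too few counts to be tested, and no fold is given for it. In GENCODE 29, 27.2% of the exonic bases of TAF9 are also exonic in other genes (AK6 and RAD17), and AK6 had at most 1 count in any library. For POLR2A the same annotation shows 0% shared exonic bases, but the files carry a later version of its gene model, and the annotation used for counting is not given in the sources used here. The cause of the low counts of POLR2A and TAF9 was not tested, and neither count can be read as the level of the transcript.

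The other members were measured at depth, and their levels per transcript length spread widely. On the scale of CPM per kilobase of transcript, POLR2L was the highest in shCtrl at 200 ± 12.3 (SD, n = 2), followed by POLR2E at 144 ± 3.65 and POLR2G at 139 ± 1.79. The 11 Pol II subunits other than POLR2A had a median of 65.6 and a lowest value of 18.1, that of POLR2D. The 15 measured genes of TBP and TFIID had a median of 13.1, from TAF11 at 70.4 to TAF4 at 3.36, and the 7 genes of TFIIA, TFIIB, TFIIE and TFIIF a median of 22.5, from GTF2F1 at 67.1 to GTF2E1 at 6.62. These levels depend on the transcript chosen for each gene. Exonic bases shared with other genes on either strand may bear on some of them, depending on the strand setting of the counting, which is not given. In GENCODE 29 the shared part reached 79.6% for POLR2I, 51.2% for TAF10, 28.3% for TAF6 and 22.5% for POLR2L.

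Of the 11 Pol II subunits other than POLR2A, 9 had a negative fold change and 2 (POLR2B and POLR2D) a positive one. Their median log2 fold change was -0.24 (-0.22 with POLR2A counted), against 0.00 over all tested genes. For 8 of the 11, each knockdown library was below each control, an order that 20.6% of all tested genes had. Because no member was called, this is a description of the list and not a set of changes. The direction was not carried equally by the knockdown libraries: the median ratio to the shCtrl mean was -0.11 in shRPRD1B 1 and -0.40 in shRPRD1B 2 on the log2 scale. The fitted median was -0.39 without shRPRD1B 1 and -0.10 without shRPRD1B 2.

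POLR2L, a small subunit shared by RNA polymerases I, II and III, was the only member at an unadjusted p under 0.05. It measured 186 and 170 CPM in shCtrl and 141 and 134 CPM in shRPRD1B. Both knockdown libraries were lower by a like amount and the groups did not overlap. The knockdown mean was 0.774 times the control mean, and the log2 fold change was -0.37 ± 0.11 (SE), with a 95% interval from -0.65 to -0.09, an unadjusted edgeR p of 0.0177 and an adjusted p of 0.582. Each knockdown library alone gave a ratio for POLR2L of -0.33 and -0.41 on the log2 scale. With a correction for the length and GC content of transcripts, described with the values by length, the fold change of POLR2L was -0.15 ± 0.14 (edgeR adjusted p = 0.748) and no longer passed the unadjusted threshold.

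The other subunits that all 3 polymerases share were lower by less or less evenly. POLR2F had 210 and 199 CPM in shCtrl and 183 and 138 CPM in shRPRD1B (log2 fold change -0.35 ± 0.16, edgeR adjusted p = 0.685). Its values did not overlap between groups, and most of the distance came from shRPRD1B 2. POLR2H, with 140 and 130 CPM against 125 and 102 CPM, and POLR2K, with 60.1 and 57.3 CPM against 55.4 and 47.2 CPM, had the same order. POLR2E, the most abundant member by CPM, had 416 and 401 CPM in shCtrl and 405 and 373 CPM in shRPRD1B, and its groups overlapped. Over these 5 shared subunits the median log2 fold change was -0.24, and over the 6 measured subunits of Pol II alone it was -0.23.

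Among the subunits of Pol II alone, partners in 1 structure lay on opposite sides of 0. POLR2G, which forms a stalk with POLR2D, measured 116 and 114 CPM in shCtrl and 101 and 78.8 CPM in shRPRD1B (-0.35 ± 0.15, edgeR adjusted p = 0.679). Its stalk partner POLR2D measured 90.4 and 92.2 CPM in shCtrl and 91.2 and 111 CPM in shRPRD1B (0.14 ± 0.13, edgeR adjusted p = 0.792), so shRPRD1B 1 lay within the controls and shRPRD1B 2 above them. The transcript of POLR2G has 827 bases and that of POLR2D 5042. With the length and GC correction their log2 fold changes were -0.19 and 0.05, and the part of length in this contrast was not tested. POLR2J had 61.3 and 61.0 CPM in shCtrl and 60.5 and 39.5 CPM in shRPRD1B (-0.29 ± 0.21, edgeR adjusted p = 0.745). For POLR2J, 1 knockdown library was at the control level and the other was far below it. POLR2J is also a member of a family of near-identical copies, whose reads can be hard to assign. POLR2C, which pairs with POLR2J in the assembly platform of the enzyme, had 136 and 126 CPM in shCtrl and 112 and 121 CPM in shRPRD1B. POLR2I went from 21.8 and 21.3 CPM to 19.4 and 14.1 CPM. POLR2B, which forms the active site together with POLR2A, had 218 and 219 CPM in shCtrl and 209 and 264 CPM in shRPRD1B, on both sides of the controls.

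**Figure D2:**
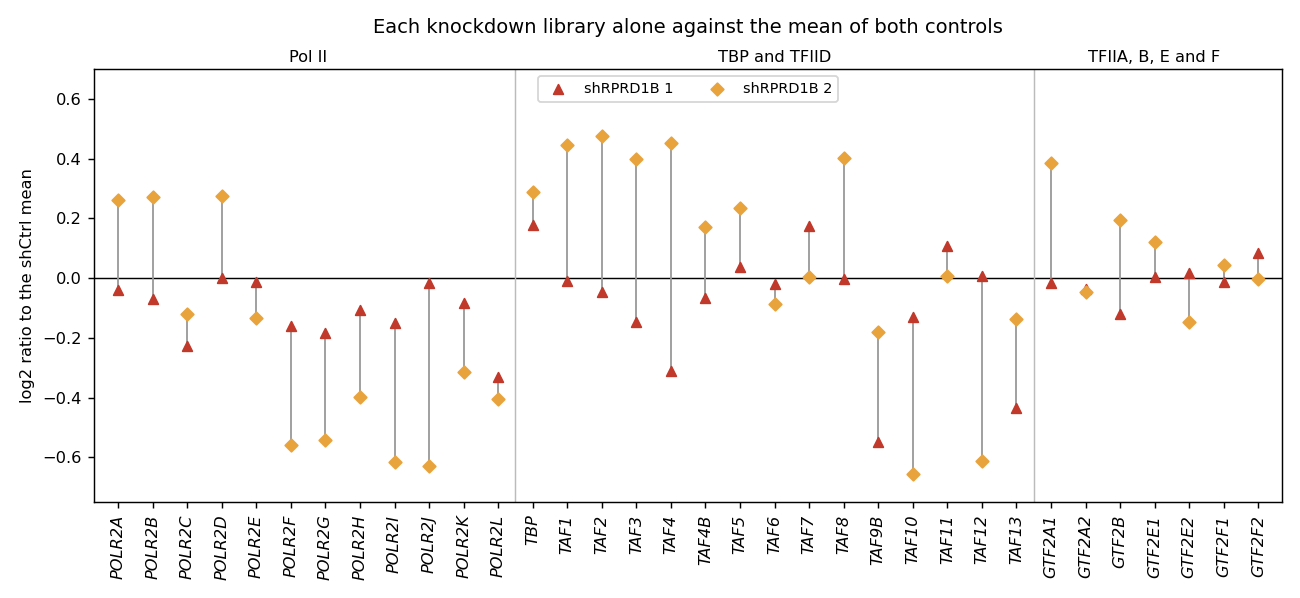
Log2 ratio of each shRPRD1B library alone to the mean of both shCtrl libraries for the 34 tested members, with a line joining the 2 libraries of a gene. The lines of POLR2L and TBP are short and lie below and above 0, while that of TAF4 is the longest at 0.76.

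Within TFIID, TBP had both knockdown libraries above both controls but was not called at the adjusted threshold in any fit that kept all libraries. TBP measured 48.0 and 44.7 CPM in shCtrl and 52.4 and 56.7 CPM in shRPRD1B. Its log2 fold change was 0.23 ± 0.12 (SE), with a 95% interval from -0.06 to 0.53 and an edgeR adjusted p of 0.698. TAF5, a scaffold subunit of the TFIID core, was the other member with that order, at 38.4 and 37.5 CPM against 39.0 and 44.8 CPM. In all, 2 of the 34 members had both knockdown libraries above the controls and 12 had both below, against 20.3% and 20.6% of all tested genes, 40.9% together. The median of TBP and TFIID, 0.09, was 0.17 without shRPRD1B 1 and -0.02 without shRPRD1B 2.

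TAF9B, a close relative of TAF9, had the smallest p in TFIID. It measured 60.6 and 61.1 CPM in shCtrl and 41.6 and 53.7 CPM in shRPRD1B, so both knockdown libraries were below the controls and shRPRD1B 1 was the lower. Its log2 fold change was -0.35 ± 0.15 (SE), with a 95% interval from -0.74 to 0.03 and an edgeR adjusted p of 0.682. TAF13, the histone-fold partner of TAF11, had the same order, with 52.7 and 52.2 CPM in shCtrl and 38.8 and 47.6 CPM in shRPRD1B (-0.28 ± 0.14, edgeR adjusted p = 0.696). Its partner TAF11 measured 114 and 108 CPM in shCtrl and 120 and 112 CPM in shRPRD1B, with overlapping groups.

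Among other histone-fold partners of TFIID, TAF12 and TAF4 had fitted values of opposite sign, and so had TAF10 and its partners TAF3 and TAF8. The 95% intervals of these partners overlapped, and no difference between partners was tested. Their transcripts are of unlike length. TAF12 has 1359 bases and TAF4 4628, and TAF10 has 1215 against 4872 for TAF3 and 6680 for TAF8. With the length and GC correction the log2 fold changes were -0.21 for TAF12 and 0.08 for TAF4. They were -0.23 for TAF10, 0.05 for TAF3 and 0.10 for TAF8. The part of length in these contrasts was not tested. TAF12 had 23.7 and 22.8 CPM in shCtrl and 23.4 and 15.2 CPM in shRPRD1B, so its low value was in shRPRD1B 2 alone (-0.27 ± 0.22, edgeR adjusted p = 0.775), and it turned to 0.01 when that library was left out. Its partner TAF4 had 13.2 and 17.9 CPM in shCtrl and 12.5 and 21.3 CPM in shRPRD1B, the widest distance between knockdown libraries of all tested members at 0.76 on the log2 scale. The controls also differed for TAF4, by 0.44, and its log2 fold change of 0.12 ± 0.29 (edgeR adjusted p = 0.929) turned to -0.08 without shCtrl 1 and to -0.31 without shRPRD1B 2. The paralogue TAF4B, at 39.8 and 43.2 CPM against 39.6 and 46.7 CPM, was more abundant per kilobase than TAF4 by 2.64 and 2.13 times in shCtrl and by 2.78 and 1.93 times in shRPRD1B. TAF10 measured 39.9 and 35.1 CPM in shCtrl and 34.3 and 23.8 CPM in shRPRD1B. Its alternative partners TAF3 and TAF8 had log2 fold changes of 0.15 ± 0.21 and 0.21 ± 0.17. TAF1, the largest TAF and the one with bromodomains, gave 0.23 ± 0.19, and TAF2, which contacts the initiator, 0.24 ± 0.19. These positive values came from shRPRD1B 2, whose log2 ratios to the shCtrl mean were 0.44 for TAF1, 0.48 for TAF2, 0.40 for TAF3 and 0.40 for TAF8. In shRPRD1B 1 the same ratios were -0.0095, -0.05, -0.15 and -0.0018, at or below the controls' mean. TAF7, which binds TAF1, gave 0.09 ± 0.12 and TAF6 gave -0.05 ± 0.12.

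The 7 genes of TFIIA, TFIIB, TFIIE and TFIIF had log2 fold changes from -0.06 to 0.20 and a median of 0.04, which was -0.01 without shCtrl 2 or without shRPRD1B 2. GTF2A1, which encodes the large TFIIA precursor, had 53.5 and 55.0 CPM in shCtrl and 53.7 and 70.8 CPM in shRPRD1B (0.20 ± 0.16, edgeR adjusted p = 0.77), so shRPRD1B 1 was at the control level. It gave -0.01 without shRPRD1B 2. GTF2A2, the small TFIIA subunit, measured 58.6 and 60.1 CPM against 57.9 and 57.5 CPM. The TFIIE subunits gave 0.06 ± 0.14 for GTF2E1, with 20.9 and 19.0 CPM against 20.01 and 21.7 CPM, and -0.06 ± 0.12 for GTF2E2, with 39.1 and 40.2 CPM against 40.1 and 35.7 CPM. Both pairs of groups overlapped, and the sign of each flipped when 1 library was left out (GTF2E1 to -0.0025 without shCtrl 2, GTF2E2 to 0.02 without shRPRD1B 2). TFIIB itself, from GTF2B, gave 0.04 ± 0.15. The TFIIF subunits GTF2F1 and GTF2F2 gave 0.02 ± 0.10 and 0.04 ± 0.12, and the interval of GTF2F1, from -0.24 to 0.28, was the narrowest of the 34 members.

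**Figure D3:**
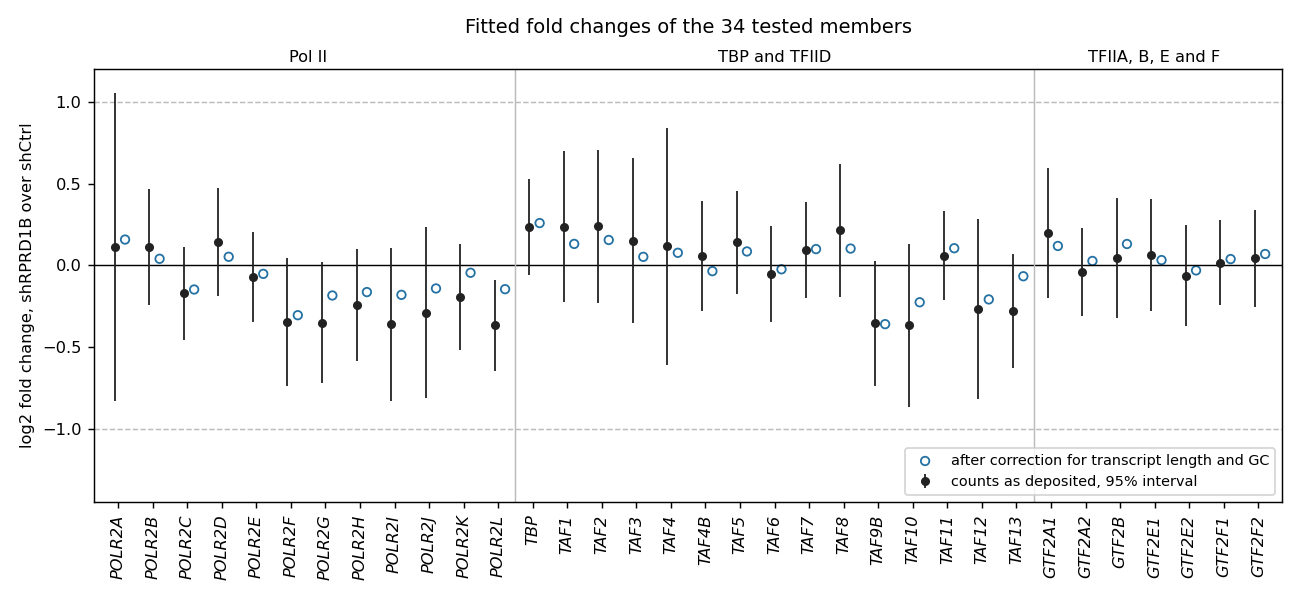
Fitted log2 fold change of each of the 34 tested members with its 95% interval (black), and the value once each library was corrected for the length and GC content of transcripts (open circles). Dashed lines mark a 2-fold change. Only the interval of POLR2A crosses one of them, and only that of POLR2L leaves out 0.

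The distance between the knockdown libraries moved with transcript length. Over 33 members (POLR2A and TAF9 left out), the log2 ratio of shRPRD1B 2 to shRPRD1B 1 and the transcript length had a Spearman rho of 0.70, given as a description, since all points share the same 2 libraries. For these members the log2 ratio of shCtrl 2 to shCtrl 1 had a rho with length of 0.39. All 9 members with transcripts over 4 kb were higher in shRPRD1B 2 than in shRPRD1B 1, with a median of 0.40. Of the 9 members under 1.5 kb, 7 were lower in shRPRD1B 2, with a median of -0.36, the exceptions being TAF13 and GTF2B. The 15 members between these lengths had a median of -0.07.

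The same was seen across the transcriptome. Among 10001 tested genes of at least 10 CPM, rho was 0.46, and 2882 of 3904 genes over 4 kb were higher in shRPRD1B 2 while 997 of 1189 genes under 1.5 kb were lower. The median ratio of those short transcripts to the shCtrl mean was -0.30 in shRPRD1B 2 and 0.00 in shRPRD1B 1. Over the same genes the log2 ratio of shCtrl 2 to shCtrl 1 had a rho of 0.43 with length. GC content moved the other way, with a rho of -0.46 for the distance between the knockdown libraries over the members and -0.44 over all these genes. The 9 subunits of Pol II that were lower have transcripts of 827 to 2831 bases, and POLR2B and POLR2D have 4108 and 5042. The part of length in the direction of the Pol II subunits was not tested.

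**Figure D4:**
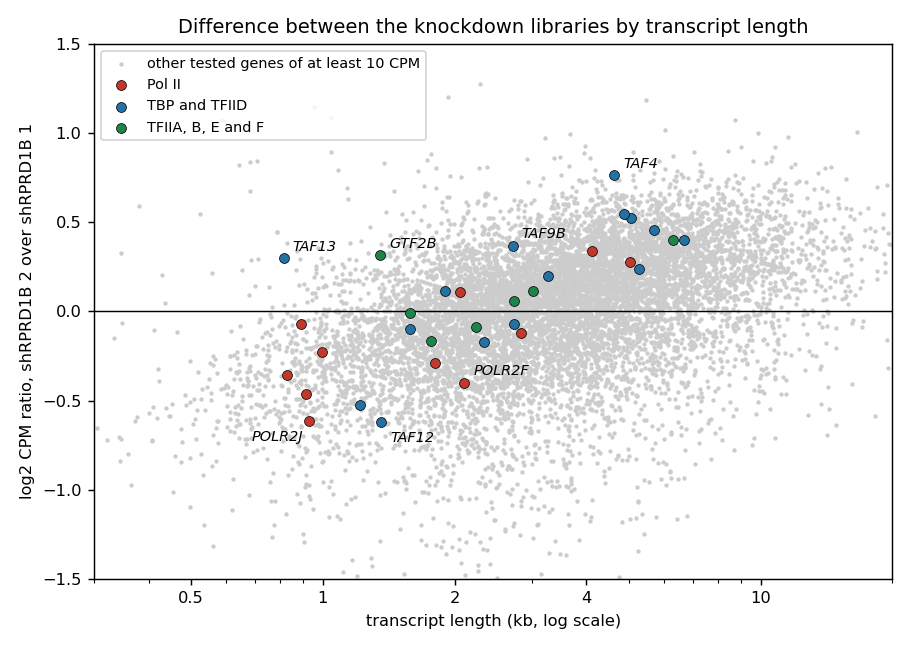
Log2 ratio of CPM between shRPRD1B 2 and shRPRD1B 1 against transcript length in kilobases on a log scale, for 33 members (coloured) and the other tested genes of at least 10 CPM (grey, of which 61 lie outside the plotted range). The 9 members over 4 kb lie above 0, and 7 of the 9 under 1.5 kb lie below it.

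Each library was then corrected for the length and GC content of transcripts, an alternative added after the data had been seen. With it the median of the 11 Pol II subunits without POLR2A was -0.15 in place of -0.24, with 9 of 11 negative, and that of TBP and TFIID was 0.08 in place of 0.09. POLR2L moved from -0.37 to -0.15, POLR2G from -0.35 to -0.19 and TAF13 from -0.28 to -0.07. The values moved less for POLR2F (-0.35 to -0.31), TAF9B (-0.35 to -0.36) and TBP (0.23 to 0.26). The corrected fit called 0 members and 0.167% of all tested genes.

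The fits were also run with a single knockdown library. Without shRPRD1B 1, 9 members were called higher and 9 lower, where 29.1% of all tested genes were called. The higher ones were POLR2B, POLR2D, TBP, TAF1, TAF2, TAF3, TAF5, TAF8 and GTF2A1, and the lower ones were POLR2F, POLR2G, POLR2H, POLR2I, POLR2J, POLR2K, POLR2L, TAF10 and TAF12. Without shRPRD1B 2, 0 were called higher and 3 lower (POLR2L, TAF9B and TAF13), where 10.4% of all tested genes were called. POLR2L was the only member called in both. Without shCtrl 1 or shCtrl 2, 0 members were called, against 0.255% and 0.246% of all tested genes. In these fits the lone knockdown library is assumed to vary like the controls, and the controls varied less than the knockdown pair, so these calls set 1 library against the controls rather than 1 condition against another.

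The promoter of TBP, chosen after the values were seen, is shown because TBP was higher in both knockdown libraries and because a promoter is where the members' products assemble. It runs from 250 bases before to 50 after the start of the gene (RefSeq, GRCh38.p14), at chr6:170554119-170554418 on the plus strand. Capitals mark GGGCGG, the core of the GC box, and GGAAGT, a core of ETS-family sites, on either strand, with no overlap between them.
TBP: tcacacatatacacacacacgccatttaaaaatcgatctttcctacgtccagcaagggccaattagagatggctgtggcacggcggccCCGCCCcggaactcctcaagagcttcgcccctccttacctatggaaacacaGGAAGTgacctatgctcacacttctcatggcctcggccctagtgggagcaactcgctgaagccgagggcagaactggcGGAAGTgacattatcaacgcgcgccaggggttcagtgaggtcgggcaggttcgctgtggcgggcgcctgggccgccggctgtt
The TBP window holds 1 GGGCGG and 2 GGAAGT. It does not hold TATAAA, the TATA box word that TBP itself binds, on either strand. Promoter windows were matched for 28 of the 35 members. Of these, 7.14% (GTF2B and TAF4B) hold TATAAA, 60.7% GGGCGG and 42.9% GGAAGT, against 11.95%, 44.6% and 23.2% of 27305 promoters of all genes. Those promoters include genes not expressed here, and the shares among expressed genes alone were not computed. A match is a run of letters and not a bound site.

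The word ACTAGC in the 3′ UTR had been picked on these same fold changes as more common among lower transcripts, so its presence in members is a description. It occurs in the 3′ UTRs of TAF8, TAF9B, GTF2A1 and GTF2F2, 12.1% of 33 tested members, and of 14.5% of the 13970 tested genes with a 3′ UTR. Over those 13970 genes the median log2 fold change was 0.0039 with the word and 0.023 without it. Over the 33 members it was 0.12 with the word and -0.04 without it. TAF9B and GTF2A1 hold it at 2 places each, and those sites are shown because these genes lay on opposite sides of 0, at -0.35 and 0.20. Capitals mark the word within its transcript strand.
TAF9B first site: ttacttactgtcACTAGCtaattttttttt
TAF9B second site: cttgttctcctcACTAGCagtaggaaagta
GTF2A1 first site: aagaaaccccaaACTAGCtcctcaggaata
GTF2A1 second site: caaatgattaatACTAGCttttaaaaagtt
In GRCh38 the words lie on the minus strand at chrX:78131199-78131204 and chrX:78129898-78129903 for TAF9B and at chr14:81179420-81179425 and chr14:81175938-81175943 for GTF2A1. TAF8 (0.21 ± 0.17) and GTF2F2 (0.04 ± 0.12) had positive values too, so 1 of the 4 members with the word had a negative fold change. POLR2L, POLR2G and POLR2F do not hold it.

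Genes around the same machinery were read from lists as a comparison. Of 19 subunits of RNA polymerases I and III that are not shared with Pol II, or are shared between I and III only, 18 were tested, 12 were positive, and the median was 0.11, with 0 called by edgeR and 2 lower at an unadjusted p under 0.05. The positive ones include POLR3E, with 42 and 34 counts in shCtrl and 538 and 47 in shRPRD1B. Its log2 fold change of 2.55 came from shRPRD1B 1. POLR1H, with 0 and 106 counts in shCtrl and 0 and 2 in shRPRD1B, was not tested. POLR1F, a stalk subunit of Pol I, had 81.3 and 78.1 CPM in shCtrl and 34.7 and 39.9 CPM in shRPRD1B. Both knockdown libraries were far below the controls and close to each other, with a mean of 0.467 times that of shCtrl. Its log2 fold change was -1.10 ± 0.13 (edgeR adjusted p = 0.0905, DESeq2 adjusted p = 1.27e-08). Over the edgeR alternatives the adjusted p of POLR1F ran from 2.1e-07 without shRPRD1B 2 to 0.374 without shCtrl 1. It was called with the replicate number as a block (0.00463), with the length and GC correction (0.0293) and with no low-count filter (0.0468). POLR3G, a subunit of one form of Pol III, had 39.2 and 38.3 CPM against 31.9 and 27.1 CPM (-0.39 ± 0.14, edgeR adjusted p = 0.64).

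The list of factors that assemble Pol II in the cytoplasm and bring it into the nucleus had 5 of 15 tested genes positive. Its median was -0.05, and 0 of its genes were at an unadjusted p under 0.05. The list also holds POLR2M, which is not such a factor and was among the positive genes (0.10 ± 0.12). UXT, a prefoldin-like protein, measured 51.7 and 46.8 CPM in shCtrl and 46.3 and 36.4 CPM in shRPRD1B, and GPN1, a GTPase needed for nuclear import of Pol II, 43.2 and 39.1 CPM against 45.6 and 47.4 CPM. Relatives and regulators of TBP and the TAFs had 9 of 14 tested genes positive and a median of 0.06. The positive ones include 2 genes of low counts. TAF15 had 8 and 14 counts in shCtrl and 24 and 22 in shRPRD1B, and TAF7L had 27 and 17 against 29 and 38. At an unadjusted p under 0.05, 1 gene of the list was higher. That gene was BTAF1, the ATPase that removes TBP from DNA, with 93.8 and 98.7 CPM in shCtrl and 115 and 134 CPM in shRPRD1B (0.37 ± 0.12, edgeR adjusted p = 0.627). TAF1A, a subunit of the Pol I selectivity factor, had 10.5 and 11.9 CPM against 13.3 and 14.5 CPM (0.31 ± 0.16, edgeR adjusted p = 0.699). Both knockdown libraries of BTAF1 and TAF1A lay above both controls, as those of TBP did. That order held for 5 of the 14 tested genes of this list and for 20.3% of all tested genes.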

How the data were processed

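Poly(A) RNA was measured in 4 libraries, and the deposited values were whole-number read counts per gene. The submitters' processing notes name Trim Galore, HISAT2, featureCounts and hg38. Which annotation was counted, with what strand setting, and what became of multi-mapping reads is not stated, and no versions are given, so reads of overlapping genes and near-identical copies cannot be told apart. Groups came from the sample titles. Counts were used as deposited.

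The members and lists were chosen with earlier results of these data known. Genes were tested in R 4.3.3 with edgeR 4.0.16: quasi-likelihood fit without the legacy option (chosen over the legacy fit after both counts of calls had been seen; neither called a member), robust estimation, TMM, filterByExpr with a minimum count of 10, group as the only term, and Benjamini-Hochberg adjustment over 20319 genes at 0.05. CPM used TMM-scaled library sizes. SEs and 95% intervals came from the same fit. Ratios for a single library needed at least 10 counts in each library. With groups of 2, no exact two-sided permutation p can go below 0.333.

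Transcript lengths, GC content, exon overlaps and 3′ UTRs came from GENCODE 29 (GRCh38), and promoters from RefSeq (GRCh38.p14). Lengths, GC content and 3′ UTRs used 1 transcript per gene, a protein-coding and principal one where available. For POLR2A that transcript has 2083 bases, beside 8355 exonic bases of the gene, and its corrected value rests on that transcript. The length and GC correction (mgcv 1.9.3) used smooth terms per library, and 93.3% of tested genes had a value. Alternatives were DESeq2 1.42.0, limma voom (limma 3.58.1), other scalings and filters, the replicate block, leaving out each library, edgeR's legacy fit and the length and GC correction, the last 2 added after seeing the data. Values in every library are given for members called by edgeR or DESeq2, at an unadjusted p under 0.05, with the 3 smallest p-values of each complex, with the 3 widest distances between knockdown libraries or with the 3 lowest counts, and for POLR2A and TBP, together with the 2 genes of smallest p in each comparison list. Values of other members were chosen for their roles after the data were seen.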

Additional observations from a re-analysis of the deposited data

How the results depend on the processing

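Over all tested genes, the counts called higher and lower were 6 and 8 with edgeR as reported, 129 and 111 with DESeq2, 0 and 0 with limma voom, 0 and 0 with at least 5 CPM in 2 libraries, 23 and 17 with no low-count filter, 15 and 19 with the length and GC correction, and 85 and 56 with the replicate number as a block. The legacy fit called 4 higher and 3 lower. At an unadjusted p under 0.05, limma voom gave 1460 genes and the 5 CPM filter 876, each with 1 member (POLR2L). With the length and GC correction 3 of 34 members were at that level (POLR2F, TBP and TAF9B) beside 9.9% of all tested genes, and with the block 5 of 34 (POLR2F, POLR2G, POLR2L, TAF9B and TAF10) beside 9.45%. Leaving out 1 library gave from 12 to 3139 higher and from 36 to 3096 lower. For the members the count was 0 in each direction under every alternative that kept all libraries, and from 0 to 9 in each direction when 1 library was left out. RPRD1B was called with DESeq2 (-0.68, adjusted p = 0.0418), and gave from -0.88 to -0.50 when 1 library was left out. The median of the 34 members, 0.03, then ran from -0.032 to 0.0028. The sample titles do not say whether same-numbered libraries share more than a number. Their deviations correlated at 0.21 over 2 pairs, which does not show a pairing. Among genes of at least 10 CPM, the log2 ratio of library 2 to library 1 had a rho with transcript length of 0.46 in shRPRD1B and 0.43 in shCtrl. Whether same-numbered libraries share a batch was not tested. With the length and GC correction TAF4B turned from 0.06 to -0.04 and GTF2A2 from -0.04 to 0.03. Of the 13 tested members named by rule, 6 turned sign, each when 1 library was left out: values then ran from -0.31 to 0.45 for TAF4 (-0.08 without shCtrl 1), from -0.25 to 0.60 for POLR2A (-0.03 without shRPRD1B 2), from -0.0025 to 0.13 for GTF2E1, from -0.61 to 0.0087 for TAF12, from -0.013 to 0.39 for GTF2A1 and from -0.15 to 0.019 for GTF2E2. The cause of these differences was not tested. Pooled over genes, libraries of a group differed by more than counting error. The chi-square was 8.18 times its degrees of freedom between the controls and 87.0 times between the knockdown libraries. No such value is given for single members. Whether depth or the number of libraries limits the precision of each member was not tested.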
